A study of Mus musculus with 4 samples.

Results

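The galectin family was followed in RNA-seq of mouse regulatory T cells through 6 genes, Lgals1, Lgals3, Lgals4, Lgals8, Lgals9 and Lgals3bp, chosen by symbol from the 50600 genes of the deposited tables. All 6 were found, each under a single gene ID, and the choice used no measured value. The study holds 4 libraries in 1 group: primary regulatory T cells of mouse strain C57BL/6NJ, numbered as biological replicates 1 to 4, with age, developmental stage and sex not recorded and no treatment or genotype given in the labels. A CD4+ T cell differentiation protocol is linked in the labels, and the file headers name the counted output as activated, 24 h. All 4 libraries share 1 donor identifier and the labels do not tell if animals or cultures were separate, so each p-value measures only the spread between these libraries. There is no control group, so the results below are levels, their order and their spread between libraries.

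Galectins are small lectins that bind galactose-containing glycans. They are made in the cytosol without a signal peptide, leave the cell by an unconventional route, and cross-link glycoproteins such as CD45, CD43 and integrins at the T cell surface. Prototype galectins (galectin-1, galectin-2 and galectin-7) carry a single carbohydrate-recognition domain and form dimers, the chimera galectin-3 joins such a domain to a long self-associating tail, and tandem-repeat galectins (galectin-4, galectin-8, galectin-9 and galectin-12) hold a pair of different domains on 1 chain. Lgals3bp is not a galectin but a secreted, heavily glycosylated ligand of galectin-3. Galectin-1 is known as an effector molecule of regulatory T cells.

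The libraries held 38590127 to 93035969 fragments assigned to genes. Replicate 1 stood apart in the share of fragments from Gm42418, a feature known to overlap ribosomal RNA sequence, which was 2.04% there and 0.0704 to 0.175% in the others, and protein-coding genes held 88.2% of its TPM against 95.6 to 96.6%. TPM divides each gene's count by its exon length and then scales every library to the same sum, so levels of different genes can be compared, with a limit. That length merges all annotated exons, so a gene whose transcripts use only part of them reads low. Replicates 1 and 2 carried Xist RNA at 100.4 and 88.7 TPM, against 0.716 and 0.603 for replicates 3 and 4, and the summed Y-linked genes Ddx3y, Eif2s3y and Kdm5d ran the other way, 0.241 and 0.266 against 99.4 and 98.8. The libraries thus did not all come from a single animal, although the labels give 1 donor identifier, and within each of these pairs the spread may be technical. Most markers of the labelled cell type were expressed. No other T cells were measured, so these levels do not tell regulatory from other activated T cells. All 8 T cell genes had a mean of at least 10 TPM, beside 36.2% of all protein-coding genes. They were led by Trac (1436 ± 156 TPM, SD, n = 4), Lck (823 ± 64.5) and Cd5 (724 ± 66.3). So did 7 of 8 regulatory T cell genes reach 10 TPM, led by Tnfrsf4 (1344 ± 59.8), Il2ra (702 ± 44.1) and Tnfrsf18 (401 ± 20.03). Foxp3 had 109 ± 14.5 TPM, and Ikzf2, the gene below 10, had 4.32 ± 0.788. These 2 were named after their values were seen. Of 50 genes marking other cell types, 9 reached a mean of 1 TPM and 13 had no fragment. Cd8b1, of CD8 T cells, alone reached 10 TPM (21.8 ± 4.19), while Cd8a of the same list had 1.11 ± 0.451. The highest endothelial, B cell and dendritic markers were Pecam1 (4.93 ± 0.366), Igkc (2.69 ± 1.54) and Zbtb46 (0.888 ± 0.145).

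RNA of the 6 genes was mostly that of Lgals1, followed by Lgals9 and Lgals3bp. Lgals1 (ENSMUSG00000068220.5, mm10, chromosome 15, 78926725 to 78930465, plus strand, 4 exon blocks, 800 bp of exon) encodes galectin-1. Replicate 1 had 360 TPM, and replicates 2, 3 and 4 had 406, 403 and 409. The last 3 libraries lay within a few TPM of each other and replicate 1 was lower. The mean was 394 ± 23.3 TPM (SD, n = 4), which ranked 401 among 21764 protein-coding genes. With TPM computed over protein-coding genes alone, replicate 1 had 408 TPM and the others 417 to 425, a mean of 418 ± 7.67, so the gap of replicate 1 was narrower on that scale. In 21330 fragments over the 4 libraries Lgals1 was also the member with most counts, although its exons are the shortest of the 6. No fragment was counted for its pseudogenes Lgals1-ps1 and Lgals1-ps2. Reads that map to several places were not counted, so reads that Lgals1 shares with these pseudogenes would lower its value. All 519 bp of Lgals1-ps2 also lie in exons of Pick1 on the same strand, so its count of 0 cannot be read as absence.

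Lgals9 (ENSMUSG00000001123.15, chromosome 11, 78962974 to 78984946, minus strand, 11 exon blocks, 2137 bp) encodes the tandem-repeat galectin-9, described as a ligand of the receptors TIM-3, PD-1 and 4-1BB. Its levels were 118, 138, 135 and 127 TPM in the order of replicate number, with a mean of 129 ± 9.09 (SD, n = 4). Replicate 1 was again the lowest, but with TPM over protein-coding genes alone replicate 4 was (132 TPM, against 134 in replicate 1). Lgals3bp (ENSMUSG00000033880.11, chromosome 11, 118392751 to 118402092, minus strand, 6 exon blocks, 2847 bp) had 61.8, 58.9, 66.2 and 68.7 TPM in replicates 1 to 4, a mean of 63.9 ± 4.39. Here replicate 2 was the lowest and replicate 4 the highest, so the abundant members did not share an order of libraries.

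RefSeq sequence just upstream of the start site was at hand for 5 of the 6 members, not for Lgals1, and is shown for the abundant Lgals9 and Lgals3bp and for Lgals3, the member that differed most between libraries. Each run holds 250 bases before the RefSeq start site of build GRCm38.p6, 5′ to 3′ on the gene's strand, from chr11:78984925-78985174 (minus strand) for Lgals9, chr11:118401960-118402209 (minus strand) for Lgals3bp and chr14:47373610-47373859 (plus strand) for Lgals3. Capitals mark matches to 2 motifs read on both strands: a pair of GAAA runs with any 2 bases between them, the core of the interferon-stimulated response element, and GGGCGG, the GC box. TTC and GAA with any 3 bases between them, the interferon-gamma activated site, was searched as well. The capitals in Lgals9 and Lgals3 are matches on the opposite strand, so the reverse complement of the motif is printed.
Lgals9: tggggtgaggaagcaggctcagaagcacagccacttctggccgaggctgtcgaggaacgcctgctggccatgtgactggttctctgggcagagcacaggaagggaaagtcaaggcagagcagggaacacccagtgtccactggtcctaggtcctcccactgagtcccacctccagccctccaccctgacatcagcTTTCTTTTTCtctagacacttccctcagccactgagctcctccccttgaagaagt
Lgals3bp: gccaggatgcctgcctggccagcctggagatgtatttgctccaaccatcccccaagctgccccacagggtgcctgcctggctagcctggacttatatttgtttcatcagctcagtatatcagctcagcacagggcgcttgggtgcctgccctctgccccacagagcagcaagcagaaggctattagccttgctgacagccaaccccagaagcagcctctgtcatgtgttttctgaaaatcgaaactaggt
Lgals3: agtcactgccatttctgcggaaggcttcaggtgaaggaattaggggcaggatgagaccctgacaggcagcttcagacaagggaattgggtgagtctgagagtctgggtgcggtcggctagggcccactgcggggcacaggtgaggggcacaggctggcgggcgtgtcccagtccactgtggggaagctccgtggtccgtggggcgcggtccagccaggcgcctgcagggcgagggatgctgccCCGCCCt

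Lgals9 held the paired GAAA motif at 2 positions of its 300-base window, which adds 50 bases after the start: the match in capitals begins 55 bases before the start site and the other at base 16 after it. This motif was in 3.44% of 32851 promoter windows of the same length, and in none of the other 4 members with a sequence. Lgals3 held GGGCGG at 2 positions, -7 and 5 from the start site, and Lgals4 at position 30; 35.7% of all windows hold it. None of the 5 held the interferon-gamma activated site, which was in 8.30% of windows. Lgals3 had 18 CpG dinucleotides in its window, Lgals8 had 6, Lgals4 and Lgals9 had 4 each and Lgals3bp had 3, beside a median of 7 over all windows. For all 5 but Lgals4 the RefSeq start lies inside the span counted here, far inside for Lgals3 (start 47373860) and Lgals8 (start 12461738), so other starts of these genes are not covered. A match is a run of letters, not a measured site, and the motifs were chosen with the sequences in view.

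The remaining members were expressed at a few TPM. Lgals3 (ENSMUSG00000050335.16, chromosome 14, 47367751 to 47386160, plus strand, 8 exon blocks, 1858 bp) encodes galectin-3, which is abundant in macrophages and on T cells binds glycans of the receptor complex and LAG-3. Its levels were 8.23, 12.8, 5.87 and 6.52 TPM, by replicate number, with a mean of 8.35 ± 3.11 (SD, n = 4). Replicate 2 was 1.86 times the mean of the other libraries, and replicates 3 and 4, those with little Xist and high Y-linked RNA, were the lowest. The part of that split in the level of Lgals3 was not tested. In counts this was 185, 315, 153 and 334 fragments. The 95% exact binomial interval in replicate 2, 6.34 to 7.93 CPM (counts scaled to library size), lay above those of replicate 1 (4.13 to 5.54), replicate 3 (2.68 to 3.71) and replicate 4 (3.22 to 4.00). Such intervals cover counting error only.

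Macrophage and monocyte markers were read beside Lgals3, since those cells are rich in galectin-3. The summed level of the 12 markers was 5.50 to 9.25 TPM and was highest in replicate 1 (9.25 TPM), then replicate 2 (7.69), replicate 4 (6.26) and replicate 3 (5.50). Of the 12, 2 reached a mean of 1 TPM, Cd68 (5.44 ± 1.23, SD, n = 4) and Adgre1 (1.399 ± 0.321), and Lyz2 and Ms4a7 had no fragment in any library. Both Cd68 and Adgre1 were highest in replicate 1 (7.11 and 1.76 TPM). Cd14 had 6 fragments in replicate 2 and none elsewhere, and Csf1r had 4 or 5 in each library. Itgam had 4, 0, 2 and 4 fragments in replicates 1 to 4. Cd14, Csf1r and Itgam were named after their values were seen. The part of such cells in the level of Lgals3 was not tested. In bulk RNA, fewer cells of a type and less RNA per cell cannot be told apart.

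Lgals8 (ENSMUSG00000057554.13, chromosome 13, 12439415 to 12464944, minus strand, 12 exon blocks, 3688 bp) encodes galectin-8, which marks damaged endosomes and lysosomes for autophagy. It had 6.05, 7.19, 5.87 and 5.85 TPM in replicates 1 to 4, a mean of 6.24 ± 0.637 (SD, n = 4). Replicate 2 was the highest and the other 3 lay close together. With TPM over protein-coding genes alone they were less close, at 6.87, 6.08 and 6.06 beside 7.52 in replicate 2. Lgals4 (ENSMUSG00000053964.17, chromosome 7, 28833854 to 28841708, plus strand, 8 exon blocks, 2315 bp) encodes galectin-4, known from intestinal epithelium. It had 3.72, 2.05, 3.35 and 2.93 TPM, a mean of 3.01 ± 0.718, from 104, 63, 109 and 187 fragments. Replicate 2 was the lowest for Lgals4 and the highest for Lgals3 and Lgals8. Of 8 epithelial markers, Epcam alone reached a mean of 1 TPM (1.33 ± 0.324), the 8 summed to 1.26 to 1.98 TPM, less than Lgals4 in every library, and Krt8, Krt19, Vil1 and Tspan8 had no fragment.

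**Figure D1:**
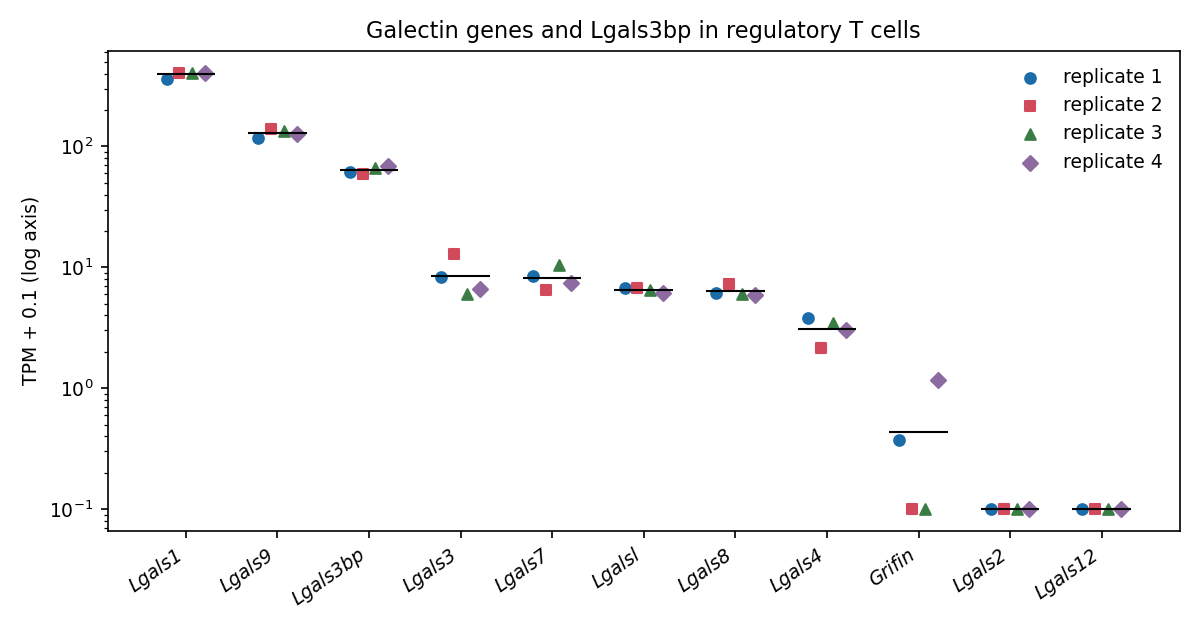
TPM plus 0.1 on a log axis for the 6 family members and the other 5 mouse galectin genes of the tables, with 1 point per library and a black line at the mean of the 4 libraries. Lgals1, Lgals9 and Lgals3bp lie above 50 TPM in every library, and Lgals2 and Lgals12 sit at the bottom with no fragment.

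Set in order, the members ran Lgals1, Lgals9, Lgals3bp, Lgals3, Lgals8, Lgals4. Lgals1 was 2.93 to 3.22 times Lgals9 within a library, a difference of 1.61 ± 0.06 on the log2(TPM + 0.1) scale (SD, n = 4). Lgals9 was 1.85 to 2.35 times Lgals3bp, a difference of 1.02 ± 0.15 on that scale. The widest step, 2.99 ± 0.58, lay between Lgals3bp and Lgals3, where the ratio was 4.61 to 11.3. These 3 steps had the same direction in 4 of 4 libraries and ranges that did not overlap, and so had the step from Lgals8 to Lgals4 (1.05 ± 0.49). Lgals3 and Lgals8 did not differ beyond their spread: the difference was 0.35 ± 0.36, their ranges overlapped, and in replicate 3 the ratio was 0.999. A sign-flip permutation test, exact and two-sided, gave p = 0.125 for the other 4 steps (adjusted p = 0.156 over the 5) and p = 0.25 for Lgals3 against Lgals8 (adjusted p = 0.25), and with 4 libraries no p below 0.125 is possible.

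Lgals1 held 65.1 ± 0.604% of the summed TPM of the 6 members (SD, n = 4), with 64.5 to 66.0% in single libraries, Lgals9 21.4 ± 0.722% and Lgals3bp 10.6 ± 0.789%. The 3 together held 97.1 ± 0.546%. Lgals3 ranged from 0.948% in replicate 3 to 2.04% in replicate 2, and Lgals4 from 0.328% in replicate 2 to 0.667% in replicate 1. By fragments, which favour longer genes, Lgals1 held 38.5 ± 0.584%, Lgals9 33.7 ± 1.16% and Lgals3bp 22.2 ± 1.61%.

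No member passed the test for varying between libraries more than genes of like abundance. By edgeR's quasi-likelihood dispersion with Benjamini-Hochberg adjustment, 0 of 6 passed an adjusted p of 0.05, beside 0.484% of the 12396 genes tested, and 1 of 6, Lgals3, had an unadjusted p under 0.05, beside 5.62% of all genes. All 6 passed the abundance filter. DESeq2's dispersion outliers also held 0 of the 6, beside 94 of the 21459 genes with any fragment. Lgals3 had an edgeR p of 0.00429 and an adjusted p of 0.418, and 1.02% of genes had a smaller p. Without replicate 2 its adjusted p was 0.994 and its mean 6.87 TPM, and over all alternatives with a p the adjusted p was 0.0754 to 0.994. Lgals1 had the smallest ratio of its dispersion to that of like genes among the 6, 0.210, then Lgals9 with 0.403 and Lgals8 with 0.622, while Lgals3bp had 1.04, Lgals4 1.403 and Lgals3 5.53. The median of the 6 was 0.833, beside 0.806 over all genes tested.

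The coefficient of variation of TPM was 5.90% for Lgals1, 6.87% for Lgals3bp, 7.02% for Lgals9, 10.2% for Lgals8, 23.8% for Lgals4 and 37.3% for Lgals3. Counting error alone would give 1.46% for Lgals1, 1.93% for Lgals3bp, 1.55% for Lgals9, 5.37% for Lgals8, 10.001% for Lgals4 and 6.73% for Lgals3. The observed spread was above the counting error for all 6, and the low members Lgals3, Lgals8 and Lgals4 carried the larger counting errors. This spread depends on the scale, since replicate 1 had the lower protein-coding share of TPM (88.2%). With TPM over protein-coding genes alone the SD of Lgals1 was 7.67 in place of 23.3, on a mean of 418. On that scale the SD was also smaller for Lgals9 (5.98) and Lgals3bp (4.28). It was larger for Lgals3 (3.30), Lgals4 (0.865) and Lgals8 (0.703).

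**Figure D2:**
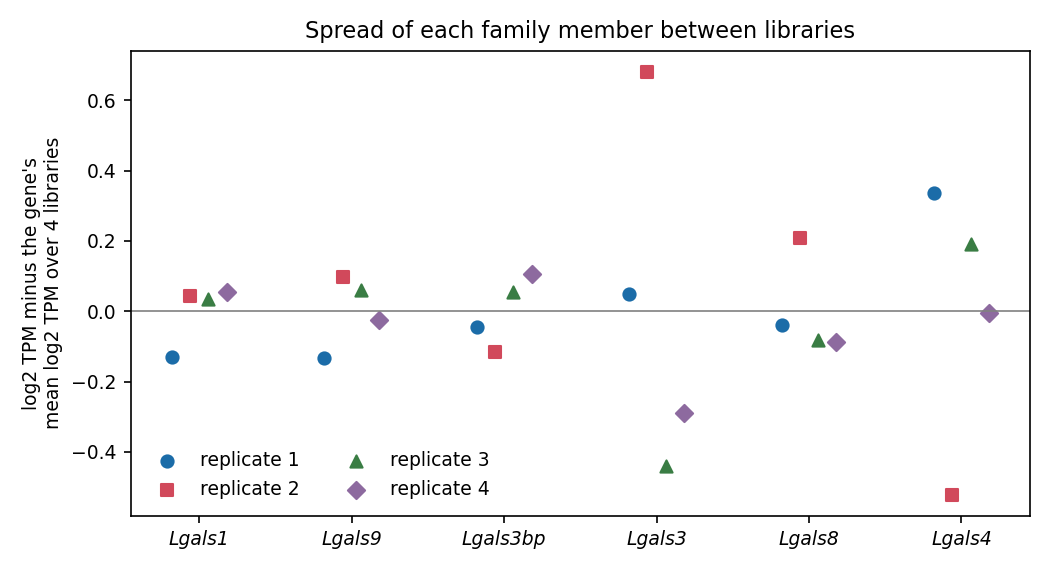
For each member (horizontal axis), the log2 TPM of each library minus the gene's mean log2 TPM over the 4 libraries, with 1 point per library. Lgals3 spans from -0.44 in replicate 3 to 0.68 in replicate 2, and Lgals4 lies at -0.52 in replicate 2, while Lgals1 stays between -0.13 and 0.05.

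**Figure D3:**
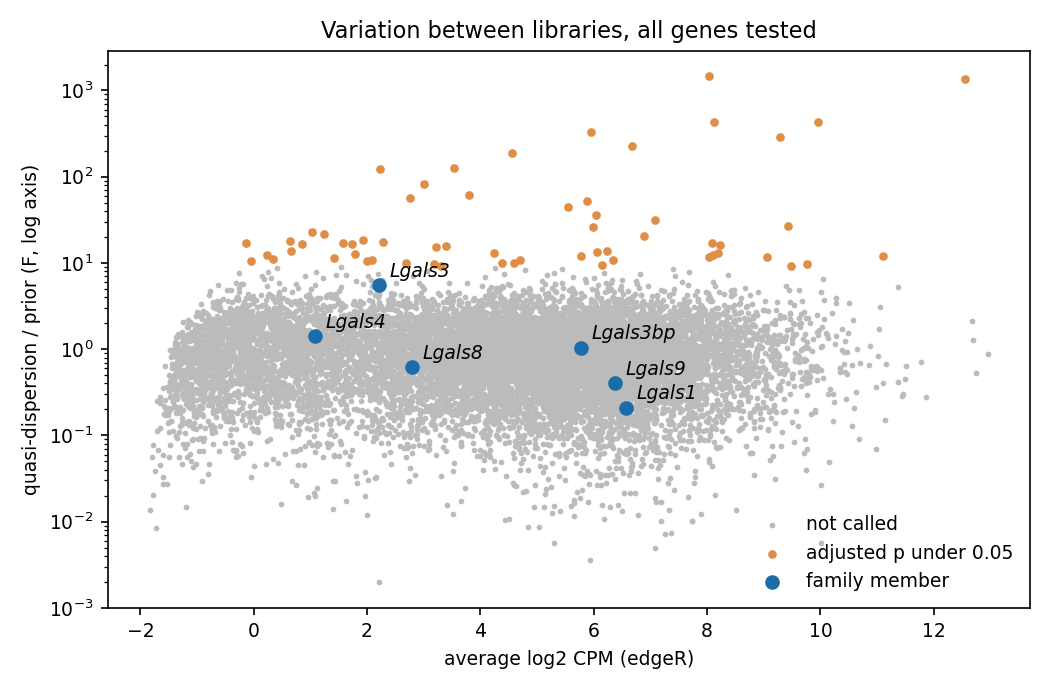
Ratio of each gene's quasi-dispersion to the prior for genes of like abundance (log axis) against its average log2 CPM, for the 12396 genes tested, with the 60 called genes in orange and the 6 members in blue. All 6 members lie among the grey genes, with Lgals3 (5.53) the highest of them.

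The other galectin genes had means no higher than that of Lgals3. Of 6 listed, 5 were in the tables and Lgals6 was not matched. Lgals7, a prototype galectin of stratified epithelium, had 8.30, 6.42, 10.4 and 7.32 TPM in replicates 1 to 4 (mean 8.10 ± 1.70, SD, n = 4), and Lgalsl, which encodes a galectin-like protein, had 6.63, 6.61, 6.35 and 6.07 (mean 6.42 ± 0.261). Both lay within the range of Lgals3, 5.87 to 12.8 TPM. Grifin, a galectin-related gene of the lens, had 2 fragments in replicate 1, 18 in replicate 4 and none in the others. Lgals2 and Lgals12 had 0 fragments in all 4 libraries, which allows up to 0.0322 to 0.0777 CPM from the deepest to the shallowest library.

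Neighbouring galectin genes differed. Lgals2 and Lgals1 lie on chromosome 15 with 71195 bp between them, holding 5 other genes of which 2 are protein-coding. The first had no fragment and the second 394 TPM. Lgals4 and Lgals7 lie on chromosome 7, both on the plus strand, 22144 bp apart with no gene of the tables between them. Both were low, with means of 3.01 and 8.10 TPM, and both were lowest in replicate 2 (2.05 and 6.42 TPM). No member shared exon sequence with another gene on either strand.

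Glycoproteins known to bind galectins were listed for T cells, so the choice itself favoured high levels. Of 28 listed, 24 had a mean of at least 1 TPM and 23 of at least 10, with a median of 182 TPM beside 0.520 over all 21764 protein-coding genes, of which 47.7% reached 1 TPM and 36.2% reached 10. P4hb, a disulfide isomerase that galectin-9 binds at the cell surface, had 665 ± 30.05 TPM (SD, n = 4), the integrin chain gene Itgb2 647 ± 35.9 and Cd4 540 ± 31.7. Gp1ba, a platelet glycoprotein gene, had no fragment. For galectin-9, its described receptors differed widely: Pdcd1, which encodes PD-1, had 441 to 478 TPM, Tnfrsf9, which encodes 4-1BB, 196 to 228, and Havcr2, which encodes TIM-3, 0.0304 to 0.304. For galectin-3, Lag3 had 90.3 to 108 TPM. For galectin-1, Ptprc, which encodes CD45, had 172 to 216 TPM, Spn, which encodes CD43, 285 to 333, and Cd7 0.0629 to 0.731. Pdcd1, Tnfrsf9, Havcr2, Lag3, Ptprc, Spn and Cd7 were chosen from the list after their values were seen.

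Enzymes that build or cap the glycans galectins read were mostly expressed too, in lists chosen with earlier results of these data known. Over all protein-coding genes, 47.7% reached 1 TPM and 36.2% reached 10. Of 22 branching and extension genes, 18 reached 1 TPM and 16 reached 10, led by the galactosyltransferase gene B4galt1 (220 ± 16.5 TPM, SD, n = 4), the branching enzyme gene Mgat2 (132 ± 12.2) and B4galt5 (83.9 ± 2.68). Gcnt2 was the lowest at 0.0783 ± 0.0182. Mgat5, which starts the branch that galectin-3 favours and was chosen after its values were seen, had 29.2 to 32.7 TPM. Of 14 capping genes, 13 reached 1 TPM and 10 reached 10, led by the sialyltransferase gene St3gal1 (136 ± 6.18), Nans (123 ± 4.46), which makes sialic acid, and St3gal2 (96.03 ± 9.19). Mgat3 was the lowest, with 3 fragments in replicate 4 alone. St6gal1, whose cap blocks galectin-1 binding and which was also chosen after its values were seen, had 36.4 to 40.7 TPM.

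Genes of the response to damaged membranes, in which galectin-3, galectin-8 and galectin-9 act inside the cell, were mostly expressed. Of 26 listed, 25 reached 1 TPM and 20 reached 10, beside 47.7% and 36.2% of all protein-coding genes. The highest were Chmp4b, a membrane repair subunit, at 273 ± 13.9 TPM (SD, n = 4), the mTOR pathway GTPase gene Rraga at 139 ± 7.89 and the kinase gene Map3k7 at 128 ± 12.4. Calcoco2, the mouse counterpart of the receptor that galectin-8 recruits in human cells, had no fragment. Interferon response genes were read beside Lgals9 and Lgals3bp, which interferons are known to raise in many cells. Of these 20 genes, 11 (55%) reached 1 TPM and 4 (20%) reached 10, beside 47.7% and 36.2% of all protein-coding genes, with a median of 1.14 TPM. Bst2 had 238 ± 14.3 TPM and Ifit2 17.2 ± 1.28, and Rsad2 had a single fragment, in replicate 1.

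Of these lists, too, no gene passed the test for variation between libraries. By edgeR with Benjamini-Hochberg adjustment over all genes, 0 of 24 tested partners, 0 of 20 branching, 0 of 13 capping, 0 of 25 membrane damage, 0 of 12 interferon and 0 of 2 other galectin genes passed, and 2, 2, 1, 0, 3 and 0 of them had an unadjusted p under 0.05. Over all genes tested the shares were 0.484% and 5.62%, so lists of this size hold few or no genes with an adjusted p under 0.05 at the background rate. The unadjusted count lay above the background share most clearly for the interferon genes, with 3 of 12 (Usp18, Ifit1 and Irf9). Among the regulatory T cell markers it was 3 of 8 (Foxp3, Nrp1 and Ikzf2). Whether a list exceeds its share was not tested.

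**Figure D4:**
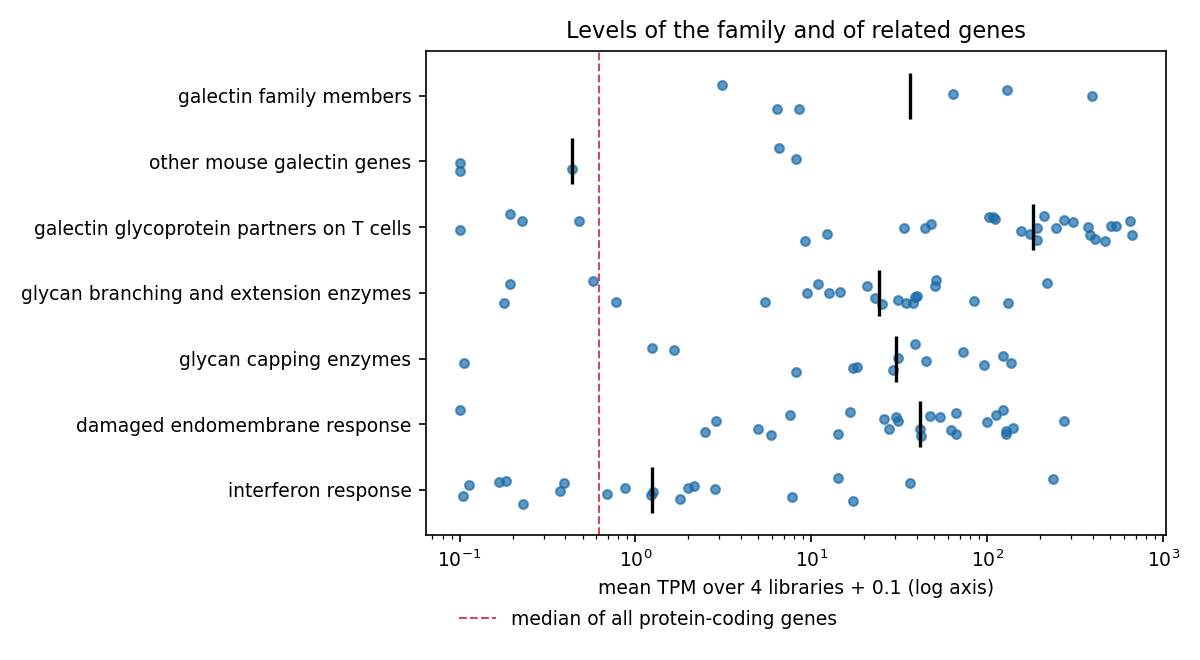
Mean TPM over the 4 libraries plus 0.1 on a log axis for each gene (points) of the galectin family and of the related lists, with a black line at each list's median and a dashed line at the median of all protein-coding genes. Partners of galectins, listed for T cells, have a median of 182 TPM, interferon response genes 1.14.

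The protein-coding genes outside the family whose levels were nearest over the 4 libraries, by Euclidean distance of log2(TPM + 0.1), were Psmc4 for Lgals1 (397 ± 18.1 TPM, SD, n = 4, distance 0.0423), Srp72 for Lgals9 (129 ± 10.5, distance 0.0413) and Cnot10 for Lgals3bp (63.4 ± 3.37, distance 0.0503). For Lgals8 it was Srl (6.38 ± 0.641, distance 0.0974), for Lgals3 Slc2a6 (8.64 ± 3.06, distance 0.265) and for Lgals4 Usp2 (2.998 ± 0.589, distance 0.256). Slc2a6 had 8.29, 12.9, 5.59 and 7.81 TPM in replicates 1 to 4, so its highest and lowest libraries were those of Lgals3. With 4 libraries and many genes, near matches are common, and the measure says only that levels lie close.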

How the data were processed

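RNA-seq libraries of mouse regulatory T cells were analysed from the authors' deposited gene tables. The deposited counts are raw fragments per gene, made with featureCounts 1.4.6-p4, per the file headers: pairs with both ends mapped, over exons by gene, strand setting 2, GENCODE mouse release 13, on mm10 per the labels. An aligner version was not given in the sources used here. Other values in the deposited tables are each gene's exon length in bp.

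Gene symbols were joined on the unversioned ID from GENCODE mouse release 21 (50376 of 50600 matched). TPM was computed from counts and exon lengths. Variation between libraries was tested in edgeR 4.0.16 (R 4.3.3) on genes kept by filterByExpr (TMM, intercept-only quasi-likelihood fit, robust prior, upper tail of F, Benjamini-Hochberg at 0.05), checked on simulated data. DESeq2 1.42.0 served as an alternative. Levels were compared within libraries with exact sign-flip permutation tests. A count of 0 allows up to 3 fragments, and interval and floor cover counting error only. No library pair was a duplicate (chi-square per degree of freedom 12.2 to 137). Members, lists and tests were chosen with earlier results of these data known. Named were all members, the 3 highest, the lowest and any called gene of each related list, leading markers, the nearest gene by level, and the feature that set a library apart. A gene that this rule names is not reported here.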

Additional observations from a re-analysis of the deposited data

Results flagged for a closer look

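Of 30 values checked over the 4 libraries, 3 had a highest or lowest library far from the others, by a gap to the nearest library, as a share of the whole range, above Dixon's critical value for 95%. Chance alone does this for about 1 value in 20, and the sum of the family is mostly Lgals1, so these are not independent. Lgals1 was low in replicate 1, with 360 TPM against 403 to 409 in the others, and the sum of the 6 members was low there too, with 557 TPM against 619 to 625. Replicate 1 is also the library with the lowest share of TPM in protein-coding genes, 88.2%. With TPM over protein-coding genes alone the gap of Lgals1 was 0.551 of its range. Lgals8 was high in replicate 2, with 7.19 TPM against 5.85 to 6.05 in the others. This gap, too, was narrower with TPM over protein-coding genes alone, 7.52 against 6.06 to 6.87.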

How the results depend on the processing

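No paired analysis was possible because the labels give 1 group, so no replicate numbers are shared between groups. The number of members varying between libraries was 0 under all 9 alternatives run (DESeq2 size factors, both filters, the non-robust prior, DESeq2's dispersion outliers and each library left out). These called few genes in all, from 40 of 12396 (non-robust prior) to 116 of 21459 (no low-count filter), so 0 of 6 lies near the background. The adjusted p of Lgals3 was lowest with no low-count filter (0.0754) and highest without replicate 2 (0.994). All 5 steps in the order of members kept their direction under each alternative run for the order: Lgals3 over Lgals8, the smallest, was 0.20 to 0.47 with a library left out. By fragments, which were not among these alternatives, that step turned: Lgals8 held 2.81% and Lgals3 1.89% of the 6 members. The share of Lgals1 was 38.5% by fragments in place of TPM, which leaves out the division by length, and 64.9 to 65.3% with a library left out. Mean levels of the 6 members moved by less than their SD, except that Lgals1 rose to 418 with TPM over protein-coding genes, and that FPKM with TMM-scaled library sizes, a different unit, gave 118 for Lgals1 and 0.908 for Lgals4. The interferon list had 10 or 11 genes at 1 TPM or more. Depth limits Lgals4 most, with 63 fragments in replicate 2.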
